A study of Mus musculus with 2 samples.

Results

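Peptide growth factors are released by cells to act on themselves and their neighbours, and 9 of them are described here across serum stimulation and THOC5 depletion: Pdgfa, Pdgfb, Pdgfc, Vegfa, Vegfc, Fgf2, Fgf7, Hgf and Igf1. They were chosen by name, as every non-control probe of both arrays whose gene name is one of these symbols, which gave 16 probes for 9 of the 28312 named genes on the array. The cells were immortalized Murine Embryonic Fibroblasts (MEF) of the strain background C57BL/6 x B6:129 Ola, in which both arms of the study carried floxed THOC5 alleles and the tamoxifen-dependent recombinase (Rosa26ERT2 Cre: THOC5 (flox/flox)). Control cells, labelled wildtype, received no tamoxifen, and THOC5-depleted cells, labelled THOC5 knockdown, received it for 2 days. An effect of tamoxifen itself cannot be told apart from that of THOC5 loss, since the control cells were untreated. The RNA was total RNA of a single cell line. In each array the green channel (Cy3) held RNA of unstimulated, serum-starved cells and the red channel (Cy5) held RNA of the same kind of cells after 1 h of fetal calf serum (FCS).

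There was 1 array per condition and no dye swap, so no difference below has a replicate check and no p-value, and the array cannot be told apart from the condition. The serum ratio is the Cy5 over the Cy3 processed signal within an array, and its only measured error is the spread between repeated spots. For 399 probes printed as 10 spots, the median SD of the log2 serum ratio among those well above background was 0.028 (control) and 0.031 (depleted). For each growth factor probe the median SD of the 50 such probes nearest in signal is given as "spot SD"; it covers spotting, scanning and hybridization within an array, not the cells. Genes were taken at their brightest probe, and 2-fold was used as the limit for a call. Thoc5 itself was 7.09-fold lower in unstimulated and 5.39-fold lower in stimulated THOC5-depleted cells; whether its probe lies in the deleted part was not examined. All 7 fibroblast markers examined (Col1a1, Col1a2, Col3a1, Vim, Pdgfrb, Thy1 and S100a4) were well above background in all 4 channels. Over 4 epithelial markers the summed signal was 160 and 187 in the Cy3 and Cy5 channels of control cells and 124 and 94.5 in those of depleted cells. Krt8 and Krt18 were well above background in all 4 channels and Cdh1 in none. The 3 endothelial markers summed to between 81.5 and 121, with Pecam1 and Cdh5 well above background in all 4 channels and Tek in none. The 4 immune markers summed to between 429 and 619. Of the immune sum Cd14 made up 377 to 584, and Ptprc, Cd68 and Adgre1, at 5.59 to 26.0, were each well above background in 2 of the 4 channels. Single markers differed between the arrays by 2-fold or more after normalization. Without serum Col3a1 was 2.18-fold lower and Epcam at least 2.57-fold lower in depleted cells, where Epcam was not well above background. Cd68 was at least 2.35-fold higher without serum in depleted cells (log2 1.23, and 1.04 with serum) and was not well above background in control cells. With serum the log2 difference was -1.29 for Epcam, again a bound, and -1.12 for Cdh5. The part of these differences in the growth factor results was not tested. In bulk RNA, fewer cells of a type and less RNA per cell cannot be told apart.

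Platelet-derived growth factors (PDGF) are dimers that bind the tyrosine kinase receptors Pdgfra and Pdgfrb and drive fibroblasts to divide and migrate, and serum is itself rich in them. Vascular endothelial growth factor A (Vegfa) acts mainly on endothelial cells, while fibroblasts are a main source of Fgf7 and Hgf, which act on epithelium, and of Igf1, which acts on most cells through Igf1r. THOC5 is a subunit of the THO complex, which couples transcription to processing and export of mRNA, and the study asked how the early response of genes to serum depends on it.

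For Vegfa and Igf1 the values differed between probes of the gene, so the probe sequences are shown first. All positions are on mouse build mm9 as the array files give them, sequences are written 5′ to 3′ in the sense of the transcript, and each probe has 60 bases. Vegfa has a pair of probes, called here the coding probe and the 3′ probe from general knowledge of the transcript, since no annotation of mm9 was used (the 3′ probe at base 3026 of the transcript, chr17:46154387-46154446, minus strand), and of the latter the first 30 bases are shown.
Vegfa, base 3026: cagatcggtgacagtcactagcttgtcctg
Pdgfb also has a pair of probes, at bases 1750 and 2812 (chr15:79827438-79827497 and chr15:79826376-79826435, minus strand), of which the first 30 bases are
Pdgfb, base 1750: actccaggctgcaggcttctcttgactcca
Pdgfb, base 2812: gttccttctgcttccttcagtttgtaaagt
The 2 Pdgfa probes (bases 950 and 959; chr5:139452934-139452993 and chr5:139452925-139452984, minus strand) share 51 bases and read nearly the same stretch, shown by 30 of the shared bases.
Pdgfa, base 959: ctcagagagacagtgagaaagcttccttgt
Igf1 has 5 probes along chromosome 10 (plus strand). A probe at base 1027 of a short transcript (chr10:87378456-87378515) lies 15045 bases upstream, in the genome, of those at bases 889 and 909 of the long transcript (chr10:87393561-87393620 and chr10:87393581-87393640, which share 40 bases), and those are followed by base 3252 (chr10:87395924-87395983) and base 6909 (chr10:87399581-87399640). Of these, 3 are shown by their first 30 bases, since bases 1027 and 6909 mark the ends of the range of values given below and base 889 is the first probe of the long transcript.
Igf1, base 1027: aaccattaaaaacatgccaccaagaccttc
Igf1, base 889: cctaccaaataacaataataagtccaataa
Igf1, base 6909: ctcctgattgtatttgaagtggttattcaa

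Pdgfa, Pdgfb and Vegfa were the growth factors with a serum ratio of 2 or more in control cells, 3 of the 8 genes that could be counted, where 2.65% of all genes did so. The growth factors were chosen with earlier results of these data known, so shares of all genes are given beside them as description only. In THOC5-depleted cells none of the 8 reached 2-fold, where 0.942% of all genes did. No growth factor was 2-fold lower after serum on either array, with 1.73% of all genes lower in control and 0.377% in depleted cells. The median log2 serum ratio of the 8 genes was 0.21 in control cells, beside -0.02 over all 18814 genes counted there, and 0.06 in depleted cells, beside -0.01 over 18574 genes. Of the 16 probes, 14 were well above background in all 4 channels, 1 in control cells only (Igf1 at base 3252) and 1 in none (Fgf2).

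**Figure D1:**
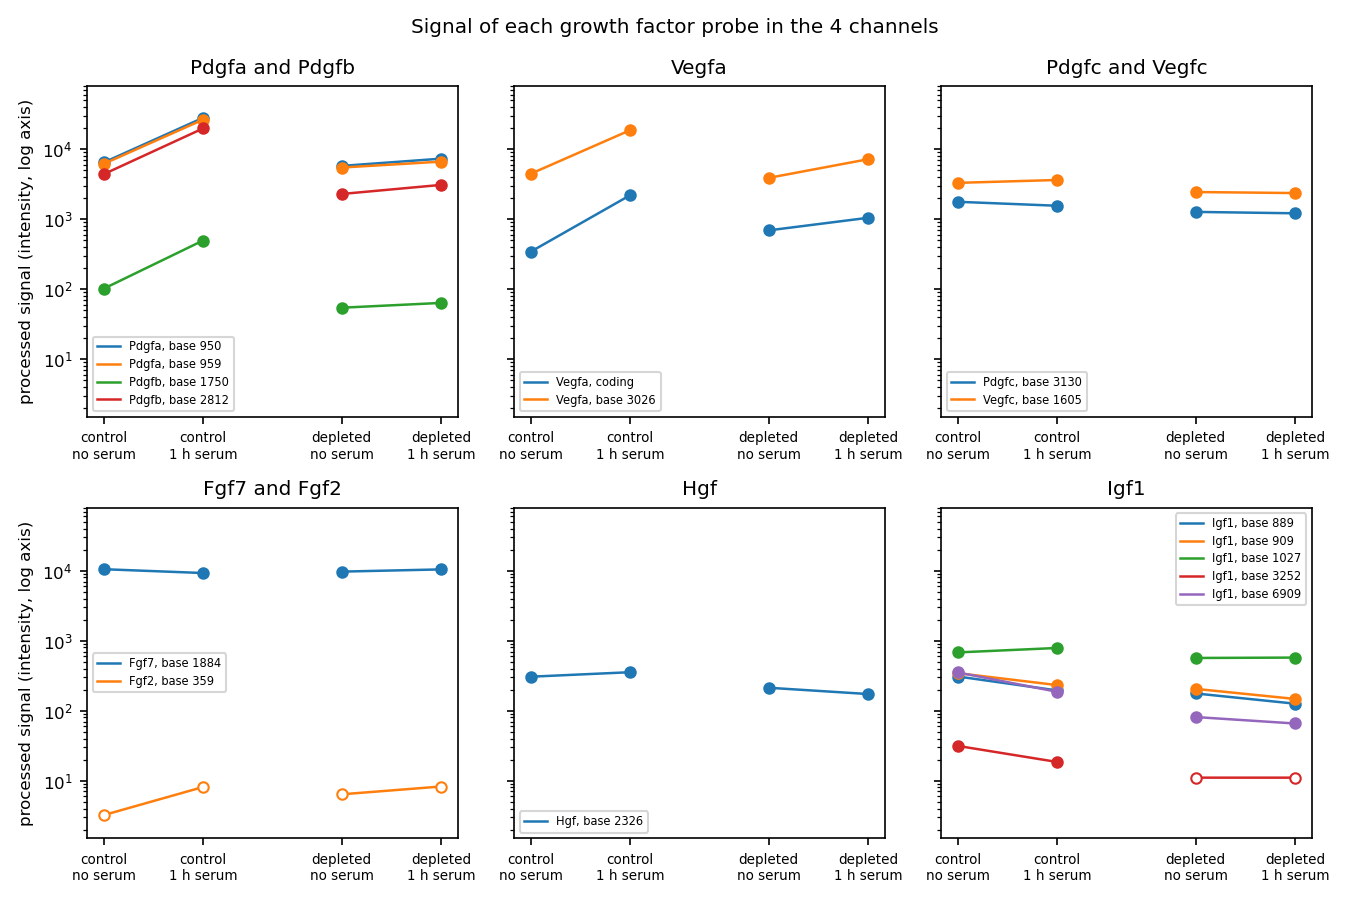
Processed signal (intensity, log axis) of each growth factor probe in the 4 channels, each line joining the Cy3 (no serum) and Cy5 (1 h serum) signal of 1 array; probes are named by the first base in their transcript (the coding probe of Vegfa as such), open circles were not well above background, and levels of different probes are not comparable. The lines of Pdgfa, Pdgfb and Vegfa climb 4-fold or more on the control array and by less than 2-fold on the depleted array, while the other probes well above background had serum ratios between 0.530 and 1.16. The lines of Fgf2 climb on both arrays but lie below background, where values have no order.

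Pdgfa encodes the A chain of PDGF, the main ligand of Pdgfra. Its probe at base 950 had a signal of 6484 in unstimulated and 28090 in stimulated control cells, and of 5772 and 7321 in THOC5-depleted cells. The stimulated control channel stood apart, with the other 3 channels between 5772 and 7321. These signals carry no scaling between the arrays, and the order of the unstimulated channels turned after normalization, as given below. The serum ratio was thus 4.33 (log2 2.12, spot SD 0.019) in control and 1.27 (log2 0.34, spot SD 0.019) in depleted cells, a fold reduction of 3.42. The overlapping probe at base 959 gave ratios of 4.27 and 1.21 and a fold reduction of 3.52. These probes differed by 0.02 in the log2 serum ratio of control cells, close to the spot SD, and by 0.06 in that of depleted cells, which is above it.

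Pdgfb encodes the B chain, which forms dimers that bind both PDGF receptors. Its brighter probe, at base 2812, read 4412 and 19815 before and after serum in control cells and 2293 and 3088 in depleted cells. Its serum ratio was 4.49 (log2 2.17, spot SD 0.018) in control and 1.35 (log2 0.43, spot SD 0.02) in depleted cells, a fold reduction of 3.34. The dimmer probe, at base 1750, read 102 and 496 in control and 54.3 and 63.6 in depleted cells, with ratios of 4.86 (log2 2.28, spot SD 0.042) and 1.17 (log2 0.23, spot SD 0.11). This probe gave a fold reduction of 4.15, and both probes had the same order of channels, with stimulated control cells highest and unstimulated depleted cells lowest. Unlike Pdgfa, Pdgfb was also lower before serum. After normalization between the arrays (Aquantile, which gives both arrays the same distribution of mean log2 signal), its unstimulated signal was 1.55-fold lower at base 2812 and 1.65-fold lower at base 1750 in depleted cells, below the 2-fold limit, while that of Pdgfa was 1.12-fold higher. When log ratios were first scaled so that both arrays had the same spread, the log2 difference turned to -0.21 for Pdgfa and reached -1.02 for Pdgfb at base 2812. In stimulated cells Pdgfb was 5.17-fold (base 2812) and 6.85-fold (base 1750) lower and Pdgfa 3.06-fold lower in depleted than in control cells.

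Pdgfc encodes a ligand of Pdgfra that is released as a latent factor and cut by proteases such as tissue plasminogen activator. Its single probe (base 3130, chr3:81017572-81017631, plus strand) read 1772 and 1556 in control and 1271 and 1214 in depleted cells. The serum ratios of 0.878 and 0.955 lay on the other side of 1 from those of Pdgfa and Pdgfb. Its log2 difference between the arrays after normalization was -0.17 without and -0.05 with serum.

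Vegfa was measured by both of its probes well above background in all channels. The 3′ probe read 4467 and 18669 in control and 3895 and 7180 in THOC5-depleted cells. Its serum ratio was 4.18 (log2 2.06, spot SD 0.018) in control and 1.84 (log2 0.88, spot SD 0.02) in depleted cells, a fold reduction of 2.27. The coding probe read 344 and 2196 in control and 692 and 1046 in depleted cells, so that the unstimulated depleted cells were above the unstimulated control cells. Its serum ratio was 6.38 (log2 2.67, spot SD 0.027) in control and 1.51 (log2 0.60, spot SD 0.028) in depleted cells, a fold reduction of 4.22. The probes differed by 0.61 in the log2 serum ratio of control cells and by 0.29 in that of depleted cells, in opposite order: the coding probe gave the higher ratio in control and the lower one in depleted cells. Both gaps were far larger than the spot SD, which covers repeats of the same probe and not differences between probe sequences.

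The gap between the Vegfa probes came with a gap before serum. After normalization between arrays, the unstimulated signal at the coding probe was 2.44-fold higher in THOC5-depleted cells, while at the 3′ probe it was 1.09-fold higher, a spread of 1.17 on the log2 scale. With the log ratios scaled to the same spread, the log2 difference was 0.80 at the coding probe and turned to -0.34 at the 3′ probe. In stimulated cells both probes were lower in depleted cells, by 1.73-fold at the coding and 2.08-fold at the 3′ probe. A spread of 1 or more between probes of a gene in the unstimulated comparison was seen in 208 of 3747 genes with several probes well above background in all channels (5.55%), with a median spread of 0.19. In the log2 serum ratio, a spread as large as that of Vegfa was seen in 8.17% of these genes on the control array (median 0.17) and in 25.0% on the depleted array (median 0.16). Vegfa is known to be made as several transcript forms, and whether the probes read different forms was not tested.

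**Figure D2:**
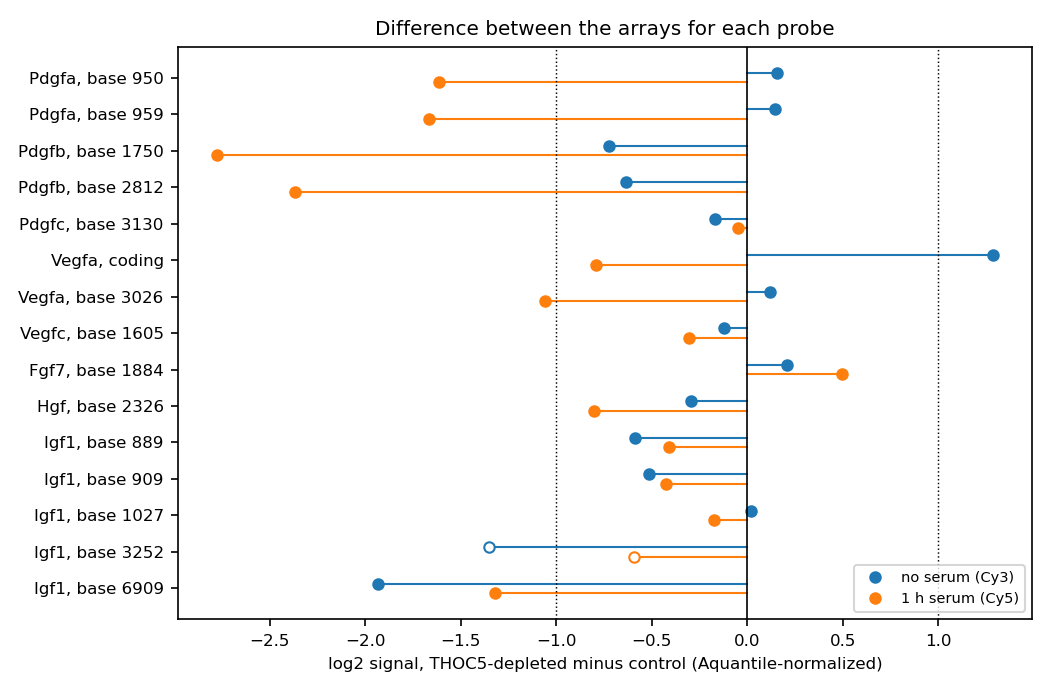
Log2 signal of THOC5-depleted minus control cells (Aquantile-normalized) for each growth factor probe other than Fgf2, without serum (blue, Cy3) and after 1 h of serum (orange, Cy5); open circles were not well above background in depleted cells and dotted lines mark 2-fold. The Vegfa coding probe lies at 1.29 without serum while that at base 3026 lies at 0.12, and the Igf1 probes run from 0.02 to -1.93.

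Vegfc, which acts on lymphatic endothelium through Flt4, is encoded on chromosome 8 and had a probe at base 1605 (chr8:55271533-55271592, plus strand) that read 3305 and 3631 in control and 2443 and 2363 in depleted cells. Its serum ratios were 1.10 (log2 0.14, spot SD 0.019) and 0.967 (log2 -0.05, spot SD 0.021). Between the arrays it differed by -0.12 without and -0.30 with serum on the normalized log2 scale.

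Fgf2, a fibroblast mitogen held by heparan sulphate in the matrix, was not detected. Its probe spans an intron (base 359, mm9 chr3:37247934-37295153, plus strand) and is shown because it is the only one under that name.
Fgf2, base 359: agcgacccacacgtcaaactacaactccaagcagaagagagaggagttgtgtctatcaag
It was printed as 10 spots, of which 6 on the control and 7 on the depleted array were not outliers, and 0 of these were well above background in any channel. In control cells the spots read 2.37 to 5.02 (median 3.15) in Cy3 and 5.38 to 9.90 (median 8.65) in Cy5, and in depleted cells 5.51 to 7.04 (median 6.46) and 6.86 to 10.1 (median 8.15). The lowest signal called well above background on the arrays was 11.2 in Cy3 on both and 14.0 and 12.0 in Cy5, so these values have no order and no fold is given. A further probe described as Fgf2 under a transcript identifier read 2.27 and 2.78 in control and 2.24 and 2.41 in depleted cells, also not above background.

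Fgf7, or keratinocyte growth factor, is made by fibroblasts and acts on epithelial Fgfr2. It was read by a probe at base 1884 (chr2:125916134-125916193, plus strand) at 10500 and 9264 in control and 9705 and 10435 in depleted cells. The serum ratios were 0.882 (log2 -0.18) and 1.08 (log2 0.10), with a spot SD of 0.019 on both arrays. Fgf7 was the growth factor with the largest positive normalized log2 difference in stimulated cells, at 0.49, and it had 0.21 in unstimulated cells.

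Hgf, the ligand of Met, had a probe at base 2326 (chr5:16124829-16124888, plus strand) that read 306 and 354 in control and 212 and 173 in depleted cells. Its serum ratios were 1.16 (log2 0.21, spot SD 0.035) and 0.814 (log2 -0.30, spot SD 0.053). The normalized difference between arrays was -0.29 without serum and -0.80 with serum, the latter a 1.75-fold lower signal in depleted cells and short of the 2-fold limit.

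Igf1 gave values that depended on the probe. At base 1027 of the short transcript the signals were 680 and 787 in control and 566 and 573 in depleted cells, with serum ratios of 1.16 and 1.01. At base 889 of the long transcript they were 308 and 195 in control and 176 and 126 in depleted cells, with ratios of 0.632 and 0.715. The overlapping probe at base 909 gave ratios of 0.676 and 0.719. At base 6909 the signals were 352 and 186 in control and 81.1 and 65.6 in depleted cells, with ratios of 0.530 (log2 -0.92, spot SD 0.041) and 0.809 (log2 -0.31, spot SD 0.093). The 4 probes of the long transcript were thus all lower after serum in control cells, at ratios from 0.530 to 0.676, while that of the short transcript was slightly higher.

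In unstimulated cells the normalized Igf1 signal of depleted over control cells was 1.01 at base 1027, 0.666 at base 889, 0.70 at base 909 and 0.262 at base 6909. At base 3252 control cells read 31.4 and 18.5 in the unstimulated and stimulated channels and depleted cells were not well above background in either (11.0 in both), so the unstimulated signal was at least 2.52-fold and the stimulated signal at least 1.39-fold higher in control cells. These values hold for the processed signals: with normexp background correction and loess the log2 difference was -0.43 without and -0.09 with serum, and with every signal raised to a floor of 50 it was 0 in both. The spread among the 4 probes that were well above background in all channels was 1.95, and of the 92 genes with 4 or more such probes 15 had a spread of 1 or more, Igf1 with the largest of the 92. The probe at base 6909 was 3.82-fold lower without serum and 2.50-fold lower with serum in depleted cells. Whether the probes read different transcripts of Igf1 was not tested.

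**Figure D3:**
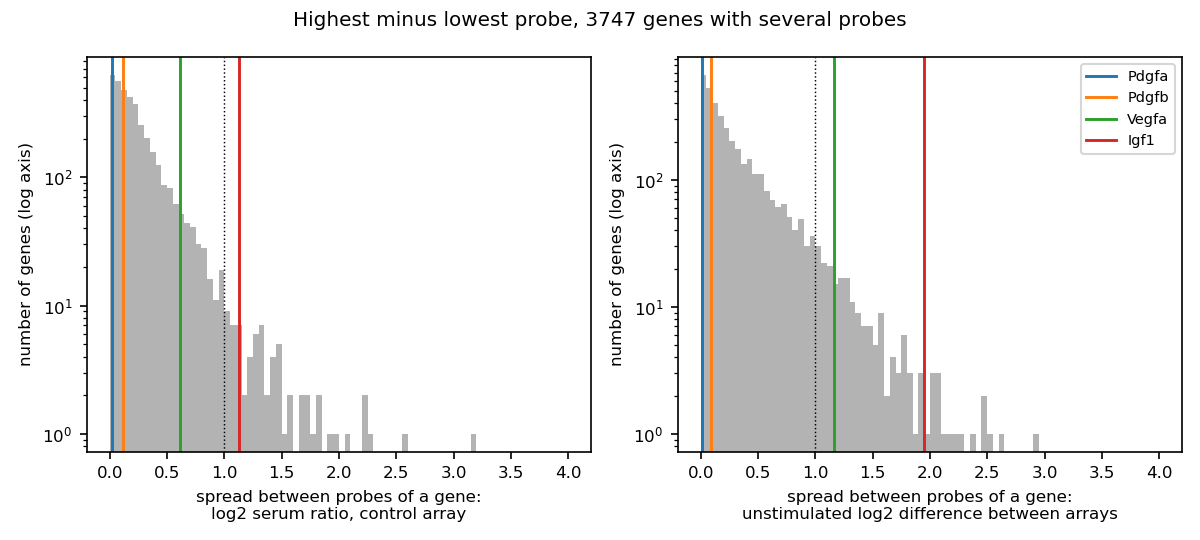
Number of genes (log axis) by the highest minus lowest log2 value among their probes, for the serum ratio of control cells (left) and for the unstimulated difference between arrays (right), over 3747 genes with several probes well above background in all channels; the dotted line marks 2-fold. Pdgfa and Pdgfb lie at 0.01 and 0.09 on the right, Vegfa at 1.17 and Igf1 at 1.95.

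Compared between the arrays, 3 of 8 growth factors (Pdgfa, Pdgfb and Vegfa) had a serum ratio lower by 2-fold or more in THOC5-depleted cells, where 1.16% of 17239 genes did, and none a ratio higher by 2-fold (0.812% of genes). Here too the shares are description only, since the growth factors were chosen with earlier results known. Before serum, none of the 8 was 2-fold lower (2.03% of genes) or higher (2.22% of genes) in depleted cells at its brightest probe. Igf1 was counted there at base 1027, whose transcript accession was not matched in RefSeq. Among its other probes, Igf1 was 3.82-fold lower at base 6909 but short of 2-fold at bases 889 and 909. The Vegfa coding probe was 2.44-fold higher. After serum, Pdgfa, Pdgfb and Vegfa were 2-fold or more lower (2.24% of genes) and none was higher (2.45% of genes). The Vegfa difference after serum lay just past the limit, at a log2 value of -1.06, and fell short of it with the median over its probes (-0.93), at the coding probe (-0.79) and with log ratios scaled to the same spread (-0.60). The log2 serum ratio of depleted minus control cells had a median of -0.35 over the 8 genes, beside 0.01 over all 17239 genes. The log2 serum ratios of all probes were wider on the control array, with a median size of 0.273 against 0.142 on the depleted array. When the log ratios of both arrays were scaled to the same spread, the log2 difference of the serum ratio became -1.05 for Pdgfa, -0.96 for Pdgfb and -0.26 for Vegfa at the 3′ probe, so that 1 of the 3 stayed past 2-fold. At the other probe of Pdgfb, base 1750, it was -1.33, and at the Vegfa coding probe -1.10.

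**Figure D4:**
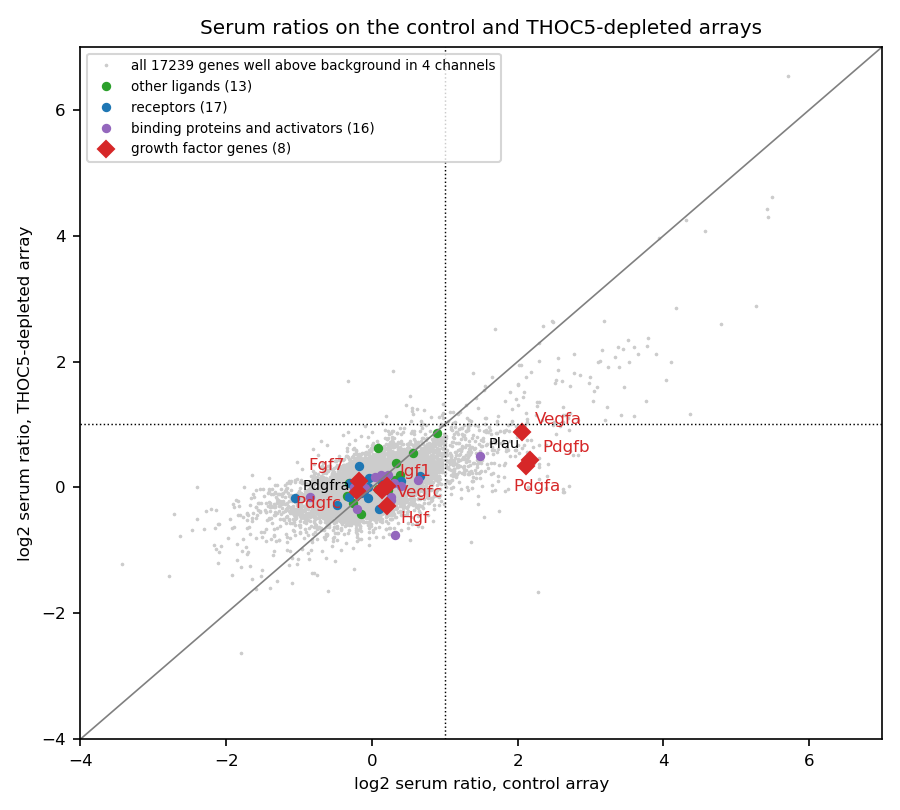
Log2 serum ratio on the THOC5-depleted array against that on the control array for all 17239 genes well above background in 4 channels (grey), for 3 lists of related genes (circles) and for the growth factors at their brightest probe (red diamonds); the diagonal marks equal ratios and dotted lines 2-fold. Pdgfa, Pdgfb and Vegfa lie right of 2 on the control axis and below 1 on the other, and the remaining 5 growth factors lie within 0.3 of 0 on both. Igf1 is drawn at base 1027, and its probes on the long transcript had control log2 ratios from -0.56 to -0.92.

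None of the other ligands of these families that could be counted passed the 2-fold limit. Of 26 (such as Pdgfd, Vegfb, Pgf, 20 FGF genes, Igf2 and Mst1), 13 were well above background in all channels, and of the 15 that could be counted in control cells (14 in depleted cells) 0 were 2-fold higher or lower after serum, and 0 of 15 between the arrays. With 2.65% of all genes higher and 1.73% lower after serum in control cells, so few genes can have 0 calls without standing apart from the rest. Fgf18 came nearest, with ratios of 1.85 and 1.83. Of 18 receptors, 17 were well above background in all channels, all but Flt4. Pdgfra, the receptor of the A and C chains, had signals of 1269 and 608 in control and 435 and 386 in depleted cells. Its serum ratio was 0.479 in control and 0.886 in depleted cells, the only one of 17 at 2-fold or more, and its unstimulated signal was 2.42-fold lower in depleted cells, again the only one of the 17. Over all genes 1.73% were lower after serum in control cells and 2.03% lower without serum in depleted cells, so 1 of 17 is not read as a result about the receptors. Pdgfrb, which binds the B chain, had ratios of 0.805 and 0.901. Met had ratios of 0.967 and 0.894, and Igf1r of 0.812 and 1.05.

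Among 24 binding proteins and activators, 16 were well above background in all channels. Plau, the urokinase that can activate Hgf, read 173 and 485 in control and 217 and 307 in depleted cells, a ratio of 2.80 against 1.41, and was the only one of 18 counted at 2-fold higher after serum in control cells (2.65% of all genes). The 1 gene of 16 with a serum ratio 2-fold lower in depleted cells (1.16% of all genes) was Igfbp3, a carrier of Igf1, which read 40.8 and 50.6 in control and 31.8 and 18.8 in depleted cells, with ratios of 1.24 and 0.590; it was named after its values were seen. Fgfbp3, which carries FGF from the matrix, read 148 and 82.2 in control and 59.8 and 54.0 in depleted cells, an unstimulated signal 2.20-fold lower in the latter. Spint1, an inhibitor of Hgf activators, read 47.3 and 56.8 in control and 20.0 and 18.1 in depleted cells, 2.13-fold lower without serum. These were 2 of 19 genes lower without serum (2.03% of all genes). With serum, 2 of 18 were lower in depleted cells (2.24% of all genes), Igfbp3 with a normalized log2 difference of -1.28 and Spint1 with -1.50. Counts of 1 or 2 genes are too few to set the list apart from all genes.

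Over the 4 channels, the genes outside these lists with the pattern most like that of each serum-responsive growth factor were found by the Euclidean distance of centred, normalized log2 signals among 17239 genes. These distances rest on 4 values from 2 arrays. The serum ratios and unstimulated differences below come from the same values, so their likeness follows from the choice. For Pdgfa they were Cplx1 (distance 0.20), Il1rl1 (0.22) and Inhba (0.22), with serum ratios of 4.53, 3.51 and 5.35 in control and 1.45, 1.28 and 1.29 in depleted cells. For Pdgfb, Wnt11 (0.30), Asb5 (0.34) and Csf3 (0.44) were nearest, with normalized unstimulated log2 differences of -0.23, -0.55 and -0.45 in depleted cells. For the 3′ probe of Vegfa the nearest genes were much closer, Apobec1 at 0.07, Kdm6b at 0.09 and Arl5b at 0.15, with serum ratios of 4.0, 4.29 and 4.52 in control and 1.79, 1.99 and 1.69 in depleted cells.

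RefSeq promoter windows, from 250 bases before to 50 after a start site on build GRCm38.p6, were given for 8 of the 9 genes, 11 windows in all, Pdgfb being the exception. They were searched on both strands for the Egr site GCGGGGGCG, the AP-1 site TGACTCA, the cAMP response element TGACGTCA and the Sp1 box GGGCGG. The search also took the hypoxia response core ACGTG, the TATA box TATAAA and the CArG box bound by serum response factor. A further sequence searched for, GCGGGCG, is not contained in the Egr site. The Sp1 box was found in 6 windows of 4 genes (Pdgfa, Vegfa, Vegfc and Fgf2), beside 35.7% of all 32851 promoter windows. Stretches of Pdgfa (chr5:138994985-138995044, minus strand) and Vegfa (chr17:46032418-46032477, minus strand) from 100 to 41 bases before their most upstream start site are shown since both genes had a high serum ratio in control cells, with the Sp1 boxes in capitals (on the opposite strand in Pdgfa).
Pdgfa: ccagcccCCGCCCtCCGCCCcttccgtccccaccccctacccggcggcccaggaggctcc
Vegfa: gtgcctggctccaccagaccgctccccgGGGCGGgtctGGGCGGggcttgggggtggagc
Neither of these windows held any of the other motifs. The CArG box, found in 1.63% of all windows, was in the window of 1 growth factor, Pdgfc, whose serum ratio was below 1 on both arrays. It is shown in capitals in the 60 bases before the Pdgfc start site (chr3:81036356-81036415, plus strand).
Pdgfc: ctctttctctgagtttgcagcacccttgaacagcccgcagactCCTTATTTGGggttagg
The Egr site (2.91% of windows) was found only in Fgf2, from 47 bases before the start, where it shares 4 bases with a Sp1 box; both are in capitals in the stretch from 60 to 21 bases before it (chr3:37348593-37348632, plus strand).
Fgf2: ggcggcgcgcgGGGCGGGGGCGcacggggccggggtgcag
The hypoxia response core (19.6% of windows) was found in the downstream of 2 Vegfa windows, 211 bases before that start. The sequence GCGGGCG (10.6% of windows), the AP-1 site (5.20%), the cAMP response element (1.79%) and the TATA box (13.6%) were found in 0 of the 11 windows. This says only that these letters are not in them.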

How the data were processed

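Two-color Agilent 60-base arrays were used, 1 for control and 1 for THOC5-depleted cells. The authors deposited the scanner text files (Agilent Feature Extraction 10.7.3.1, per the labels), which place the probes on mm9. The processed signal in these deposited files is an intensity from which background was subtracted and whose dyes were balanced within the array (linear and LOWESS); it carries no scaling between arrays. The deposited series table holds the size of the log10 ratio without its sign, after a floor, and was used only as an alternative. The number of columns not mapped to a sample was 0.

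Outlier spots (239 and 234 of 43020) were left out and spots of a probe averaged on the log2 scale. Probes were named by symbol, updated through RefSeq accessions (26412 of 35777 matched), and a gene was read at its brightest probe. Signals were set side by side between arrays after Aquantile normalization (limma 3.58.1). Genes were counted where at least 1 of the 2 channels was well above background, and for differences of serum ratios where all 4 were; a channel below background was raised to the lowest signal well above it, which gives a bound. A call is a fold of 2 or more. With 1 array per condition no test was made; the number of arrays limits the precision.

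The members, the lists of related genes and the motifs were chosen with earlier results of these data known, and the comparison of probe spreads over all genes after the probes' values had been seen. Named were all 9 genes with all probes; from the lists, up to 10 genes by the size of the control log2 serum ratio among those past 2-fold and well above background in all channels, and up to 6 by the unstimulated difference; for each growth factor past 2-fold, the 3 nearest genes by pattern. A few list genes are named besides, as receptors of the factors or for coming nearest the limit, with values known. Alternatives are given in the closing section. R 4.3.3, Python 3.11.15, numpy, pandas and matplotlib were used. The sequence and position of a Vegfa probe are not reported here.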

Additional observations from a re-analysis of the deposited data

Results flagged for a closer look

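Of the 8 growth factors counted, 3 had log2 serum ratios of opposite sign on the 2 arrays, each further from 0 than its spot SD: Vegfc (0.14 in control and -0.05 in THOC5-depleted cells, a difference of -0.18), Fgf7 (-0.18 and 0.10, a difference of 0.29) and Hgf (0.21 and -0.30, a difference of -0.51). The share of all genes with opposite signs was not counted, so the 3 are not read as a result about growth factors. Over all genes the median log2 serum ratio was near 0 on both arrays, at -0.02 in control and -0.01 in depleted cells. With 1 array per condition these differences were not tested. All are below 2-fold.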

How the results depend on the processing

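The 3 growth factors past 2-fold after serum in control cells (Pdgfa, Pdgfb and Vegfa) stayed past it under every alternative run, with log2 ratios of 1.52 to 3.09, 1.56 to 3.1 and 1.49 to 2.96. Without dye normalization, which shifts the median log2 ratio of all genes to 0.84 and 0.75, 4 in place of 3 growth factors passed 2-fold after serum in control cells (with Hgf, at 1.05) and 3 in THOC5-depleted cells; 1 did so at a threshold of 1.5-fold and 1 with log ratios scaled to one spread, in place of 0. With that scaling, 1 in place of 3 had a serum ratio 2-fold lower in depleted cells. Before serum, 1 in place of 0 was lower with the probe of largest control ratio, at 1.5-fold and with scaled log ratios, and 1 was higher with the probe of largest control ratio. The spread of the Vegfa probes was 0.55 (normexp and loess), 0.56 (no dye normalization) and 0.44 (scaled) in place of 0.61 on the control array, and 0.23 (normexp and loess) and 0.40 (scaled) in place of 0.29 on the depleted array. Of 376 values of single genes under alternatives, 260 moved by no more than the spot SD (for a difference between arrays, the root of the summed squares of both arrays' spot SDs) and 0 changed direction among those past 2-fold. Many of these values could not move. The series table holds the same scanner ratio, the floor lies below bright signals, and a gene with a single probe has no other probe to take. The counts are therefore no measure of robustness. Of 84 such values of the 9 results past 2-fold, some of them fixed in the same way, 79 stayed past it. The exceptions were the Vegfa difference after serum, at -0.93 (median over probes), -0.79 (probe of largest control ratio) and -0.60 (scaled), and the scaled differences of the serum ratio of Pdgfb (-0.96) and Vegfa (-0.26). After serum 2 in place of 3 growth factors were lower in depleted cells with the median over probes and with scaled log ratios, and with the probe of largest control ratio Igf1 (-1.32) took the place of Vegfa among the 3; at 1.5-fold 4 were lower. The unstimulated difference of the Vegfa coding probe lay between 0.80 and 1.34, and of the 3′ probe between -0.34 and 0.19. The cause of these shifts was not tested. No paired analysis was possible because each condition has 1 array. The other alternatives were a floor of 50, the series table, outlier spots kept, a median over probes, and other scalings between arrays. Fgf2 and the Igf1 probe at base 3252 are limited by signal over background.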
